A study of Mus musculus with 4 samples.

Results

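The Hox genes were examined in fibroblasts cultured from mouse embryos that were wild-type or lacked Xiap, with and without tumour necrosis factor (TNF). Members were all probe sets annotated to exactly 1 gene symbol made of Hoxa, Hoxb, Hoxc or Hoxd and a number. The rule uses names only and no measured value. It found 38 of 12488 probe sets, which stand for 31 of 8251 named genes: 10 of the HoxA, 9 of the HoxB, 5 of the HoxC and 7 of the HoxD cluster. Other Hox genes were not analysed here.

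Total RNA was measured on 4 Affymetrix U74Av2 arrays, 1 for each combination of genotype and treatment. The groups were wild-type cells without treatment, wild-type cells given 20 ng/ml TNF for 4 hours, Xiap knockout cells without treatment, and Xiap knockout cells given the same dose for the same time. Xiap is the X-linked inhibitor of apoptosis, a protein that blocks caspases, and TNF is an inflammatory cytokine that signals through NF-kB. All cells were grown in serum-containing medium and passaged regularly, and those given TNF were confluent. The part, age and sex of the embryos, the mouse strain and the number of animals behind each culture are not stated in the labels, nor is it stated whether the cells were immortalised. With 1 array per group there are no replicates, so no fold change below can be set against replicate spread, and precision is limited by the array number. Every genotype difference compares the cultures of 1 genotype with those of the other. Genotype therefore cannot be told apart from the embryos, body part or culture that the cells came from.

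Hox genes encode homeodomain transcription factors that give cells of the embryo their position along the head-to-tail axis. They lie in 4 clusters, HoxA, HoxB, HoxC and HoxD, on mouse chromosomes 6, 11, 15 and 2. Within a cluster the genes are arranged in the order in which they are used along the body: low paralog numbers act toward the head, middle numbers in the trunk, and high numbers toward the tail. Genes with the same paralog number in different clusters, such as Hoxa5, Hoxb5 and Hoxc5, descend from 1 ancestral gene and have related roles. The genes with high numbers of HoxA and HoxD are used a second time in the growing limb. Fibroblasts in culture are known to keep much of the Hox pattern of the place they came from.

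The promoter sequences of 4 members are shown because they lie before genes that differed in opposite directions between the genotypes. Hoxa5 and Hoxa7 had lower signals and Hoxa11 and Hoxd10 higher signals in the knockout cells. Each run is the 250 bases before the RefSeq start of the gene, on the strand of the gene, in build GRCm38.p6. Capitals mark each CG pair, the site of cytosine methylation in mammals.
Hoxa5, chr6:52204588-52204837, minus strand: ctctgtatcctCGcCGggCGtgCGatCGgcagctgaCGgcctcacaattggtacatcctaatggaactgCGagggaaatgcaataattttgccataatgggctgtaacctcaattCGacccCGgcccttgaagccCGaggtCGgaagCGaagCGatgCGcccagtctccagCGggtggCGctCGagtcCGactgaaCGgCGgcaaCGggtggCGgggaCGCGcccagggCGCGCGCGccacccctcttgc
Hoxa7, chr6:52218574-52218823, minus strand: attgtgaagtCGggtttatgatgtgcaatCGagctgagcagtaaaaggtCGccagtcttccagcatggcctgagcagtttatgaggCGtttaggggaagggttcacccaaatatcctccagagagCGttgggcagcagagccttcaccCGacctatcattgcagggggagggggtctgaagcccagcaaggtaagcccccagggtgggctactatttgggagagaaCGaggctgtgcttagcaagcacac
Hoxa11, chr6:52245811-52246060, minus strand: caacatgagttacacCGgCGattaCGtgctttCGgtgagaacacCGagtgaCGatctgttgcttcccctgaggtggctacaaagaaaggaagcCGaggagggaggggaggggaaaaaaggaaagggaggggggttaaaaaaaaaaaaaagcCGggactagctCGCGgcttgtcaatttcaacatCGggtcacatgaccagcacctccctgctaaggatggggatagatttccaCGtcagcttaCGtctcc
Hoxd10, chr2:74691641-74691890, plus strand: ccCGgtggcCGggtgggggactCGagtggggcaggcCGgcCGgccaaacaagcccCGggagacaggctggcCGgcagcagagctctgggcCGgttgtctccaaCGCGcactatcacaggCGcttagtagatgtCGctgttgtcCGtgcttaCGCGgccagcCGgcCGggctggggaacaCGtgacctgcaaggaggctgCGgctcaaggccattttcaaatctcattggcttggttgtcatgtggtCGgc

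These windows held 28 CG pairs for Hoxa5, 7 for Hoxa7, 13 for Hoxa11 and 20 for Hoxd10. RefSeq promoters were matched for 20 of the 31 Hox genes, in 22 windows because Hoxa10 and Hoxd11 have 2 listed starts each. Their median was 13 CG pairs, with a range of 2 to 35, against a median of 6 over all 32851 mouse promoter windows. The CG counts of genes with higher and lower signal in the knockout overlapped, at 2 to 20 pairs in 8 windows and 7 to 28 pairs in 3 windows. The letters TTTATG, the core bound by the Cdx homeodomain factors that act upstream of Hox genes, were searched on both strands and stood in 3 of 22 Hox windows, at Hoxa7, Hoxb8 and Hoxd11, and in 10.8% of all windows. TGATTNAT, a composite site of Pbx and Hox proteins, stood in 2 Hox windows, at Hoxa2 and Hoxd11, and in 2.82% of all windows. TATAAA, the TATA box, stood in 3 Hox windows, at Hoxa10, Hoxb8 and Hoxd13, and in 12.4% of all windows.

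The values are probe set signals in the linear units of the MAS5 software. Signals under 92.5, which is the 40th percentile over the 4 arrays and is called the floor, were set to that value before log2 ratios were taken. A fold change with 1 array below the floor is a lower bound and is written as at least N-fold. Measured genes are those above the floor on at least 1 array of the comparison. Where a gene had several probe sets, the one brightest on average stood for it. Median signals per array were 151 to 183, lowest on the array of TNF-treated wild-type cells, and 5426 to 5798 genes were above the floor. RNA integrity, read from the 3' to 5' signal ratio, was alike on the arrays (Gapdh 0.757 to 0.815, actin 1.08 to 1.17). Fibroblast markers were present on every array, with 9 or 10 of 10 above the floor and summed signals of 70739 to 73613. Markers of keratinocytes (1 of 6 above the floor on any array), endothelium (2 of 5) and skeletal muscle (2 of 5) were mostly below it. Of leukocyte markers 3 of 6 were above it on any array, with Cd68 and Csf1r above it on all 4. Of neural markers 4 of 5 were above it on any array. Xiap was dim, at 239 and 126 in wild-type and 181 and 120 in knockout cells without and with TNF. The labels do not say which part of the gene is deleted, so these signals do not check the genotype labels.

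Without TNF, 24 of the 31 Hox genes were measured, and 14 of these differed at least 2-fold between knockout and wild-type cells. The 6 with higher signals in the knockout were Hoxa10, Hoxa11, Hoxd8, Hoxd9, Hoxd10 and Hoxd11. The 8 with lower signals were Hoxa3, Hoxa5, Hoxa7, Hoxb5, Hoxb6, Hoxb7, Hoxb9 and Hoxc8. Of the Hox genes, 25.0% were thus higher and 33.3% lower by 2-fold or more, against 4.55% and 4.7% of all 6062 genes measured. Of the Hox fold changes, 5 of the 6 higher and 5 of the 8 lower were bounds. The plot of signals on the 4 arrays shows each member.

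**Figure D1:**
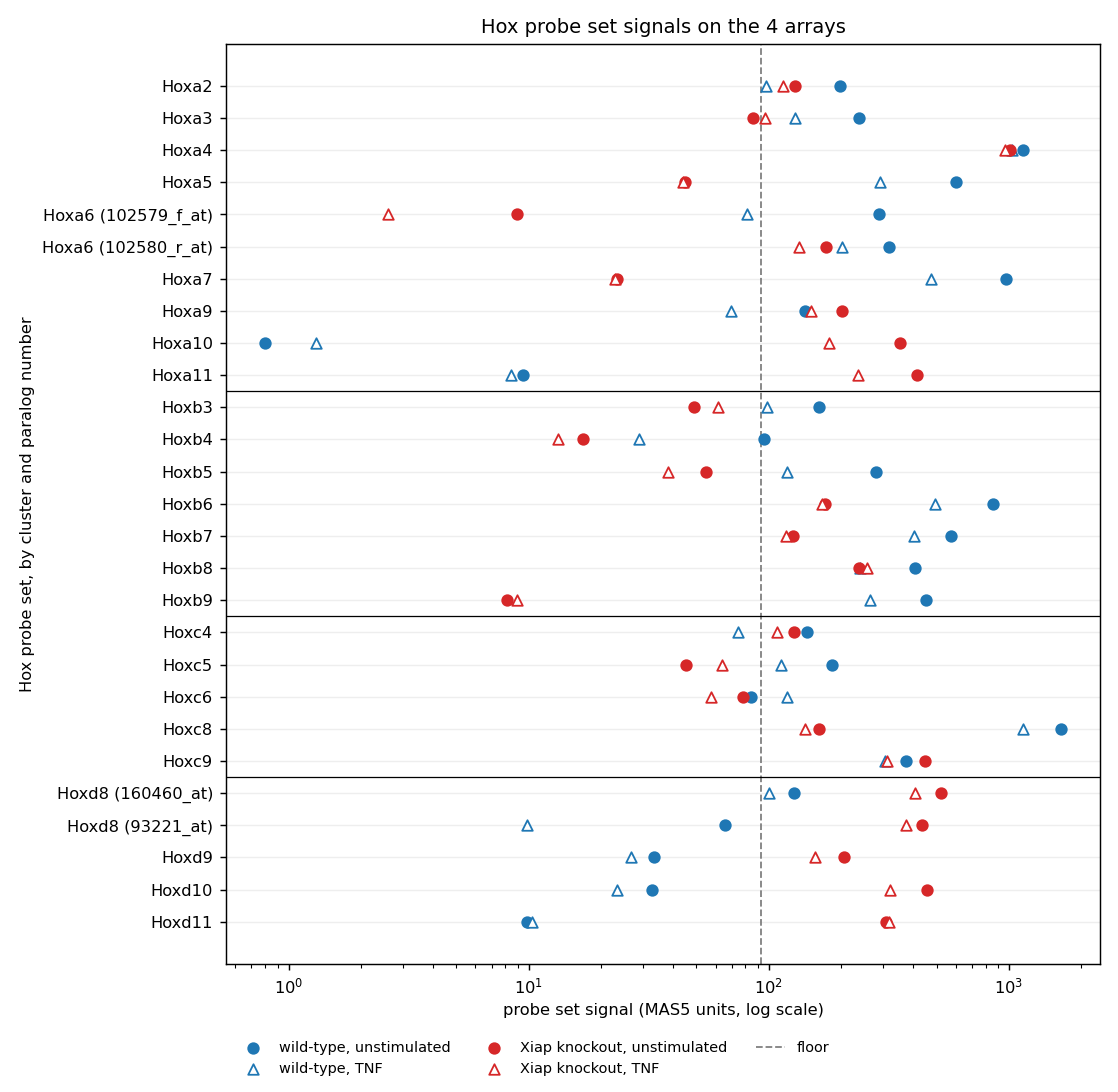
Signals of the 27 Hox probe sets above the floor on at least 1 array, by cluster (separated by lines) and paralog number, on a log axis in MAS5 units; circles are unstimulated and triangles TNF-treated cells, blue is wild-type and red is Xiap knockout, and each point is 1 array. Both knockout arrays lie left of both wild-type arrays for genes such as Hoxa7 and Hoxc8 and right of them for Hoxa10, Hoxa11 and Hoxd8 to Hoxd11; positions can be compared within a row and not between rows.

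In the HoxA cluster the direction of the difference turned between Hoxa7 and Hoxa9. Hoxa2, which patterns the hindbrain and the second pharyngeal arch, had signals of 199 and 97.5 in wild-type cells without and with TNF and of 129 and 115 in knockout cells, so that the genotypes overlapped. Hoxa3, needed for thymus and parathyroid development, had 237 and 129 in wild-type and 85.8 and 96.6 in knockout cells. Both knockout signals of Hoxa3 were below both wild-type signals, and the difference without TNF was at least 2.56-fold. Hoxa4 is an axial patterning gene with 4 probe sets, of which 3 were below the floor on all arrays. The remaining one gave 1148 and 1028 in wild-type and 1016 and 966 in knockout cells, a difference of 1.13-fold without TNF. The 4 probe sets of Hoxa4 therefore disagree on whether the gene is detected, and the bright one is of a kind (_r_at) that Affymetrix chose under relaxed design rules, as are those used for Hoxa6 and Hoxb8.

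The trunk genes of HoxA were carried mainly by the wild-type cells. Hoxa5, which acts in cervical and upper thoracic patterning and in lung development, had signals of 604 and 292 in wild-type cells without and with TNF. In the knockout cells it lay below the floor on both arrays, at 44.6 and 44.1, at least 6.53-fold lower without TNF. Hoxa7, a thoracic patterning gene, had 972 and 472 in wild-type and 23.4 and 22.9 in knockout cells, at least 10.5-fold lower without TNF. Its wild-type signals were both above the floor and its knockout signals both below it. Hoxa6, the neighbour of both, has 2 probe sets that went the same way. The brighter gave 317 and 203 in wild-type and 173 and 133 in knockout cells, a 1.83-fold difference without TNF. The other gave 288 and 81.1 against 8.9 and 2.6, at least 3.12-fold lower without TNF.

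The HoxA genes with high numbers were carried mainly by the knockout cells. Hoxa10, which patterns the lumbar vertebrae, limb and uterus, had signals of 0.8 and 1.3 in wild-type cells without and with TNF, both far below the floor. In knockout cells its signals were 353 and 179, at least 3.82-fold higher without TNF. Hoxa11, needed for the forearm and lower leg and for the kidney, had 9.5 and 8.4 in wild-type and 415 and 234 in knockout cells, at least 4.48-fold higher without TNF. For both genes the knockout signals were above the floor on both arrays and the wild-type signals on neither. Hoxa9, at the border between the lower and the higher genes, had 142 and 69.6 in wild-type and 202 and 150 in knockout cells, 1.42-fold higher without TNF. Hoxa13, which patterns hands, feet and the hindgut, was below the floor on all 4 arrays.

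In the HoxB cluster no measured gene was 2-fold higher in the knockout, and 4 of 7 were at least 2-fold lower without TNF. Hoxb6, a trunk gene, had signals of 858 and 493 in wild-type cells without and with TNF and of 172 and 166 in knockout cells, 4.99-fold lower without TNF. Hoxb7, its neighbour in the trunk, had 573 and 402 in wild-type and 127 and 118 in knockout cells, 4.52-fold lower. Both genes were above the floor on all 4 arrays, so these folds are measured and not bounds. Hoxb9, which acts in the thorax, had 450 and 265 in wild-type and 8.1 and 8.9 in knockout cells, at least 4.86-fold lower. Hoxb5, a gene of the neck and upper trunk, had 280 and 119 in wild-type and 54.9 and 38.1 in knockout cells, at least 3.02-fold lower. For Hoxb5 and Hoxb9 both knockout arrays were below the floor.

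The other HoxB genes differed less or were near the floor. Hoxb3, a hindbrain and neck gene, had 162 and 98.3 in wild-type and 48.8 and 61.2 in knockout cells, at least 1.75-fold lower without TNF. Hoxb4, known for its role in blood stem cells, rose above the floor only on the array of unstimulated wild-type cells, at 95.7, and had 28.8 with TNF and 16.8 and 13.3 in the knockout. Hoxb8, a trunk gene, has 2 probe sets, of which 1 was below the floor on all arrays. The brighter one had 406 and 240 in wild-type and 239 and 258 in knockout cells, so that the genotypes overlapped. Hoxb1 and Hoxb13, the genes at the 2 ends of the cluster, were below the floor on all 4 arrays.

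In the HoxC cluster only Hoxc8 was past 2-fold on floored signals. This gene, which patterns thoracic vertebrae and motor neurons of the forelimb, had signals of 1644 and 1146 in wild-type cells without and with TNF. In knockout cells the signals were 162 and 141, which is 10.2-fold lower without and 8.12-fold lower with TNF. All 4 arrays were above the floor, so both folds are measured. Hoxc9, its neighbour toward the tail, had 371 and 306 in wild-type and 448 and 311 in knockout cells, 1.21-fold higher without TNF, and the genotypes overlapped. Hoxc9 has only 1 probe set, of the kind named _f_at, and drops out when such sets are left out. Hoxc5 had 184 and 112 in wild-type and 45.4 and 64.1 in knockout cells, at least 1.98-fold lower without TNF. This bound is set by the floor, so it does not show whether Hoxc5 passes 2-fold. With log2(signal + 50) and no floor, the log2 ratio of Hoxc5 without TNF was -1.29. Hoxc4 had 145 and 74.5 against 128 and 108, and its genotypes overlapped. Hoxc6 was above the floor only with TNF in wild-type cells, at 119, and had 84.2 without TNF and 78.0 and 57.5 in the knockout.

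In the HoxD cluster all 4 measured genes were at least 2-fold higher in the knockout without TNF. Hoxd8, which acts in the trunk and the lower thorax, had signals of 128 and 99.8 in wild-type cells without and with TNF and of 520 and 408 in knockout cells. It was 4.06-fold higher without and 4.09-fold higher with TNF, measured on all 4 arrays. Its second probe set, at 66.0 and 9.8 against 433 and 372, was at least 4.68-fold higher without TNF. Hoxd10, which patterns the lumbar spinal cord and the hindlimb, had 32.7 and 23.3 in wild-type and 458 and 319 in knockout cells, at least 4.95-fold higher without TNF. Hoxd11, which with Hoxa11 shapes the forearm, had 9.8 and 10.3 in wild-type and 308 and 318 in knockout cells, at least 3.33-fold higher. Hoxd9, a gene of the lower trunk and limb, had 33.4 and 26.8 against 205 and 156, at least 2.21-fold higher. For Hoxd9, Hoxd10 and Hoxd11 neither wild-type array was above the floor and both knockout arrays were. The probe sets of Hoxd9 and Hoxd10 are annotated to the same sequence record, so they are uncertain as separate measurements. Hoxd1, Hoxd12 and Hoxd13 were below the floor on all 4 arrays.

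By paralog number, the lower genes stood in the middle of the series and the higher genes toward its tail end. Of 11 genes with paralog numbers 5 to 8, 10 were measured without TNF. Among these, 6 were at least 2-fold lower and 1, Hoxd8, was higher in the knockout, with a median log2 ratio of -1.89. Of 12 genes with numbers 9 to 13, 8 were measured, 5 were higher and 1, Hoxb9, was lower, with a median of 1.44. The ratios of all 5 higher genes and of Hoxb9 are bounds, so the size of this median depends on the floor. Of 8 genes with numbers 1 to 4, 6 were measured, none was 2-fold higher and 1, Hoxa3, was lower, with a median of -0.40. The median over all 6062 measured genes was -0.01. Paralog number alone did not set the direction, because Hoxd8 and Hoxc8 share a number and went opposite ways, as did Hoxb9 and Hoxd9. With a floor at the 60th percentile, a signal of 291, no Hox gene was 2-fold higher, and the median for numbers 9 to 13 was 0.28. The brightest knockout signal among those genes was 458, at Hoxd10.

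**Figure D2:**
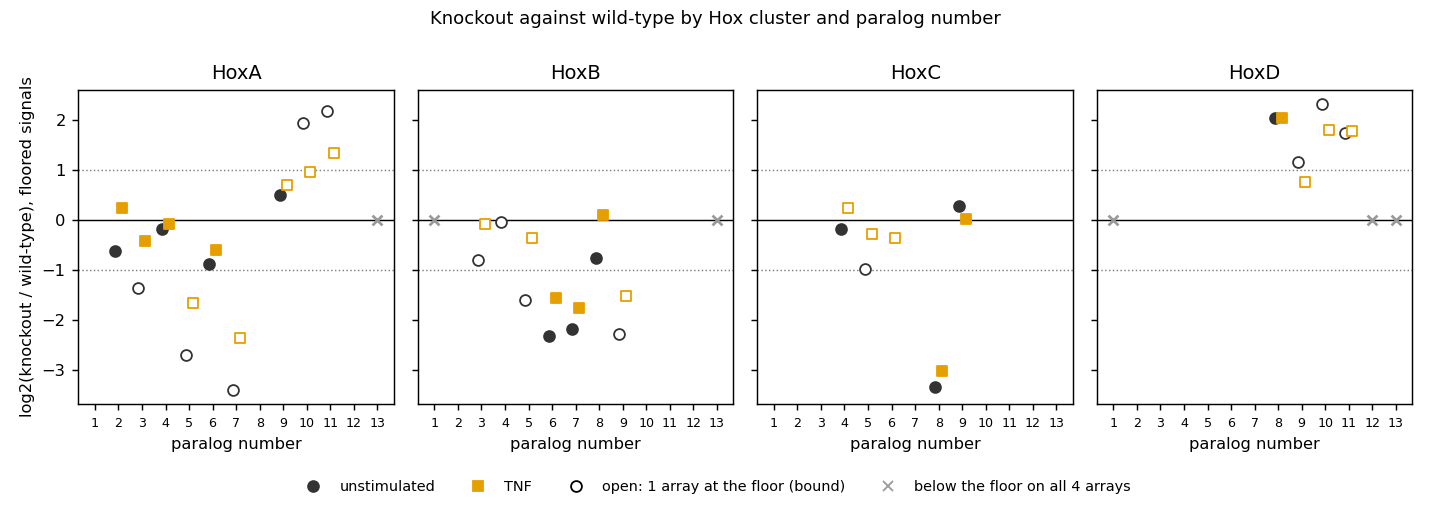
Log2 ratio of knockout to wild-type signal for each Hox gene (y axis, floored signals) against its paralog number (x axis), 1 panel per cluster; black circles are unstimulated and orange squares TNF-treated cells, open symbols are bounds, crosses mark genes below the floor on all 4 arrays, dotted lines mark 2-fold, and each point is 1 array against 1 array. HoxA runs from below 0 at Hoxa5 and Hoxa7 to above 0 at Hoxa10 and Hoxa11, HoxB stays at or below 0.10, and all HoxD genes measured lie above 0.

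The number of Hox genes above the floor followed the same split. It rests on the same signals and the same floor as the fold changes, so it is no separate evidence. In unstimulated wild-type cells 10 of 11 genes with numbers 5 to 8 and 3 of 12 with numbers 9 to 13 were above it. In unstimulated knockout cells these counts were 6 and 7. With TNF they were 11 and 2 in wild-type and 6 and 7 in knockout cells. Over all 31 Hox genes, 16 to 19 were above the floor on each array.

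Under TNF the genotype differences were measured again on the other pair of arrays, which shares no array with the unstimulated pair. Both pairs compare wild-type with knockout cells, and the labels name no separate cultures for them. A difference of origin or sex between the genotypes would enter both pairs, so their agreement does not replicate a genotype effect. Of 24 Hox genes measured there, 4 were at least 2-fold higher in the knockout (16.7%) and 6 were lower (25.0%), against 5.62% and 5.01% of 5852 genes. The higher genes were Hoxa11, Hoxd8, Hoxd10 and Hoxd11, and the lower ones Hoxa5, Hoxa7, Hoxb6, Hoxb7, Hoxb9 and Hoxc8. Among 23 Hox genes measured in both states, 20 had the same sign in both. The share of all genes that kept their sign was not counted, so 20 of 23 has no comparison. All 10 genes just named were past 2-fold in the same direction in both states, where 3.1% of 5740 genes were higher and 3.07% lower in both. The exceptions in sign, Hoxa2, Hoxb8 and Hoxc4, were under 2-fold in both states. Under TNF Hoxa10 was higher by at least 1.93-fold and Hoxd9 by at least 1.68-fold, while Hoxa3 was 1.34-fold lower and Hoxb5 at least 1.29-fold lower. When arrays were scaled to equal medians, the median log2 ratio of all genes under TNF went from 0.07 to -0.12, and the genes higher and lower at 2-fold went from 329 and 293 to 240 and 441. The Hox counts were 4 and 6 under that scaling too.

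**Figure D3:**
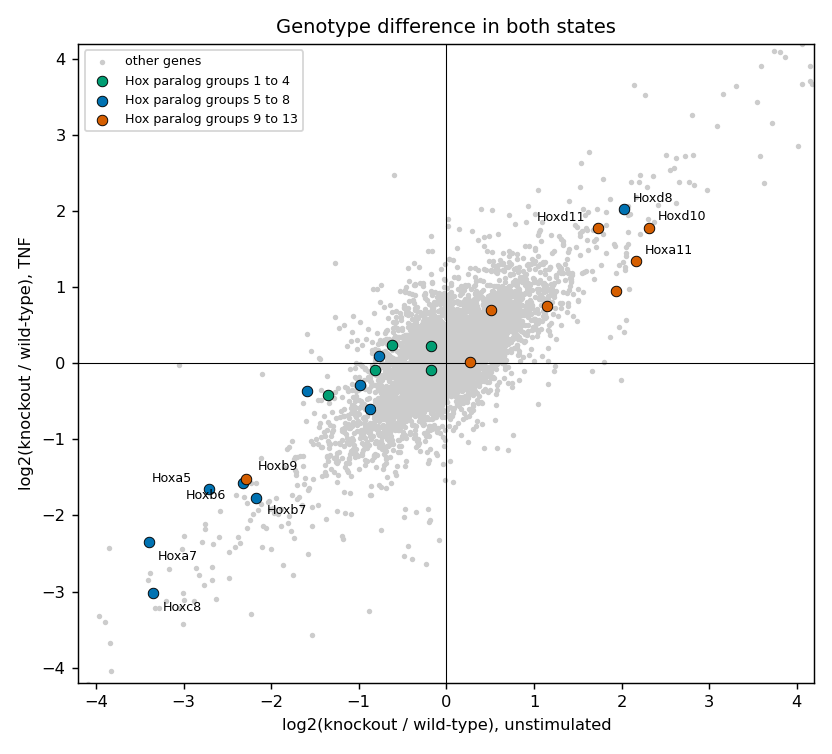
Log2 ratio of knockout to wild-type signal without TNF (x axis) and with TNF (y axis) on floored signals; grey points are 5740 genes measured in both states, of which 13 lie outside the axes, and coloured points are the 23 Hox genes by paralog number. The 10 labelled genes are past 2-fold in both states, with Hoxc8 and Hoxa7 at the lower left and Hoxd8, Hoxd10, Hoxd11 and Hoxa11 at the upper right.

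By raw signal, both knockout arrays were above both wild-type arrays for 7 of the 25 Hox genes measured on any array (28.0%, against 29.9% of 6174 genes) and below both for 14 (56.0%, against 26.3%). The 7 were Hoxa9, Hoxa10, Hoxa11, Hoxd8, Hoxd9, Hoxd10 and Hoxd11. The share on the higher side was close to that of all genes.

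An additive model of genotype and TNF was fitted with limma over all 4 arrays and 6174 genes. With 4 arrays only 1 residual degree of freedom is left, which is the difference in TNF response between the genotypes. The p-values of the fit therefore draw mostly on spread pooled over genes, not on replicate cultures. At a Benjamini-Hochberg adjusted p below 0.05, 6 of 25 Hox genes rose with the knockout genotype (24.0%, against 11.4% of all genes) and 6 fell (24.0%, against 10.4%). Hoxc8 fell by 3.18 on the log2 scale (SE 0.19, limma adjusted p = 0.000128) and Hoxa7 fell by 2.87 (SE 0.29, adjusted p = 0.00146). Hoxb7 fell by 1.97 (SE 0.23, limma adjusted p = 0.00217), Hoxb6 fell by 1.94 (SE 0.25, adjusted p = 0.003), and Hoxa5 and Hoxb9 fell by 2.18 and 1.90 (adjusted p = 0.00355 and 0.00354). Each of these genes was lower in both pairs of arrays. The fitted effect is the mean of the differences in those pairs, so this is no separate evidence.

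Among the genes that rose in the limma fit, Hoxd8 gained 2.03 on the log2 scale (SE 0.21, adjusted p = 0.00155) and Hoxd10 gained 2.05 (SE 0.23, adjusted p = 0.00204). Hoxd11 and Hoxa11 gained 1.76 and 1.75 (limma adjusted p = 0.00222 and 0.00513), Hoxa10 gained 1.44 (adjusted p = 0.0134) and Hoxd9 gained 0.95 (adjusted p = 0.0198). All 6 were higher in both pairs of arrays, which again are the values that the fit averages. Hoxa3 (-0.89, limma adjusted p = 0.0552), Hoxa6 (-0.74, adjusted p = 0.0551), Hoxb5 (-0.98, adjusted p = 0.064) and Hoxa9 (0.60, adjusted p = 0.0761) missed the threshold. Of the 12 genes called, only Hoxb6, Hoxb7, Hoxc8 and Hoxd8 were above the floor on all 4 arrays, and for the other 8 both effect and SE depend on the floor. With quantile normalization or equal medians 10 Hox genes fell in place of 6.

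Other measures also differed between the cells of the 2 genotypes. Xist, transcribed from the inactive X chromosome, had signals of 34.3 and 5.4 in wild-type cells without and with TNF and of 1232 and 1601 in knockout cells. The Y-linked Eif2s3y had 489 and 308 in wild-type and 2.8 and 9.1 in knockout cells. Eif2s3y was thus above the floor only on wild-type arrays and Xist only on knockout arrays, the pattern of male and female cells respectively. Sex of the cells and genotype therefore cannot be told apart in the differences reported here. Summed signals of 5 neural markers were 2281 and 2807 in wild-type and 3803 and 4824 in knockout cells, with 4 of 5 above the floor on any array and Map2 below it on all. That sum was mostly Tubb3, a tubulin gene, at 1663 and 2240 against 3192 and 3809, and the members did not move together. Nes was also higher in the knockout, at 274 and 278 against 420 and 715, while Gfap (107 and 84.6 against 30.1 and 72.7) and Sox10 (232 and 194 against 151 and 218) had lower signals there without TNF. Of the fibroblast markers, Thy1 was lower in the knockout, at 1120 and 1384 against 309 and 219 (limma adjusted p = 0.00125), and S100a4 was higher, at 1351 and 1226 against 4106 and 4144 (adjusted p = 0.000121). Summed signals of 3 adipocyte markers were 382 and 263 against 138 and 139 (Adipoq below the floor on all arrays), and of 3 cartilage markers 96.1 and 60.8 against 206 and 198 (Col2a1 and Matn1 below it on all). Their part in the Hox differences was not tested. In bulk RNA, fewer cells with a transcript and less transcript per cell cannot be told apart.

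With TNF, no Hox gene was 2-fold higher in wild-type cells, and 4 of 20 measured (20.0%) were at least 2-fold lower, against 2.61% of 5911 genes. These were Hoxb5 (280 to 119), Hoxa5 (604 to 292), Hoxa7 (972 to 472) and Hoxa2 (199 to 97.5), with log2 changes of -1.23, -1.05, -1.04 and -1.03. All 16 Hox genes above the floor on both wild-type arrays had a lower signal with TNF, as did 58.4% of the 5313 genes of all kinds above it on both. The median log2 change of the 20 measured was -0.68, against -0.10 over all genes. The direction held for 15 of 16 with quantile normalization (54.8% of all genes) and for 14 of 16 with equal medians (30.5%), and under each of these scalings no Hox gene was 2-fold lower. Dim genes in general were lower on this array. With all genes ordered by mean signal into 5 equal classes, the dimmest class, with 10 of the Hox genes, had a median log2 change of -0.28, and the next, with 6, one of -0.22. In these classes 5.16% and 4.31% of genes were at least 2-fold lower. The part of this in the Hox decrease was not tested. Equal medians moved the median of all genes from -0.10 to 0.18 and their 2-fold split from 156 higher and 154 lower to 283 and 68, and quantile normalization gave 192 and 82.

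In knockout cells none of the 17 Hox genes measured was 2-fold higher or lower with TNF, where 1.48% of 5868 genes were higher and 0.409% lower. The lowest were Hoxa10 (353 to 179, log2 change -0.98) and Hoxa11 (415 to 234, log2 change -0.82), both just short of 2-fold. Of the 16 above the floor on both knockout arrays, 14 had a lower signal with TNF, as did 58.5% of the 5527 genes of all kinds above it on both. The median log2 change of the 17 was -0.24, against -0.04 over all genes. Hoxb6, at 172 and 166, and Hoxb7, at 127 and 118, had log2 changes of -0.05 and -0.10. The additive limma fit called no Hox gene for TNF at an adjusted p below 0.05, where it called 1.28% of all genes higher and 0.162% lower. At an unadjusted p below 0.05, it called 1 of 25 Hox genes lower, Hoxa9, and none higher, against 7.52% and 6.48% of all genes. Whether the responses differ between genotypes was not tested, because a fit with that term would leave no residual degrees of freedom.

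**Figure D4:**
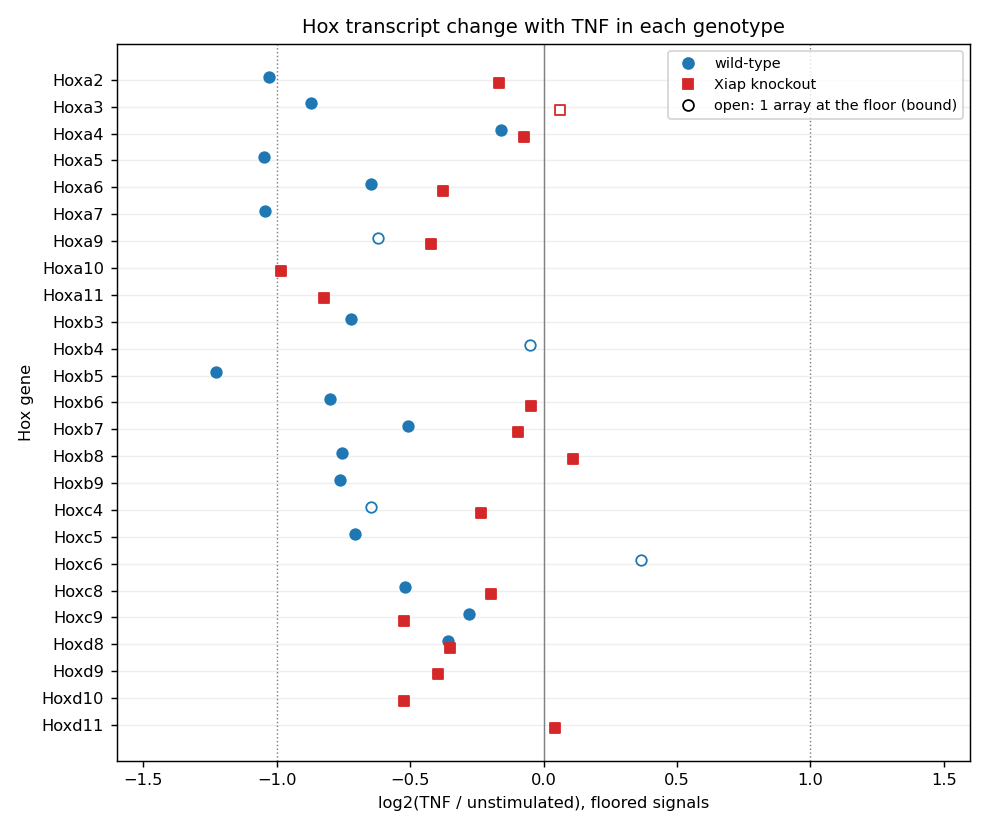
Log2 change of signal with TNF (x axis, floored signals) for each Hox gene measured (y axis); blue circles are wild-type and red squares Xiap knockout cells, open symbols are bounds, dotted lines mark 2-fold, and each point is 1 array against 1 array. Wild-type points reach down to -1.23 at Hoxb5 and knockout points to -0.98 at Hoxa10, and no point reaches 2-fold higher.

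Hox proteins bind DNA together with the homeodomain partners of the Pbx, Meis and Pknox families. Of 6 such cofactor genes measured without TNF, none was 2-fold higher in the knockout and 1, Pbx3, was lower. The shares over all genes were 4.55% higher and 4.7% lower. Pbx3 signals were 1058 and 471 in wild-type and 513 and 318 in knockout cells without and with TNF. It was 2.06-fold lower without TNF and 1.48-fold lower with TNF. In the limma fit over all genes it fell by 0.81 (adjusted p = 0.0275), where 10.4% of all genes fell. Pbx2, Meis3 and Pknox1 were above the floor on all arrays, with log2 ratios without TNF of -0.44, -0.02 and -0.15. The ParaHox and Cdx genes, relatives and regulators of the clusters, have 5 of 6 list members on the array, all below the floor apart from Gsx1, which reached 150 on the array of unstimulated wild-type cells.

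Polycomb proteins keep Hox genes silent outside their domain, and Trithorax proteins keep them active within it. Of 14 Polycomb list genes measured, 1 was 2-fold higher in unstimulated knockout cells and none lower, against 4.55% and 4.7% of all genes. This was Ezh2, the histone H3 lysine methyltransferase of the complex, at 233 and 233 in wild-type and 513 and 473 in knockout cells, 2.20-fold higher. In the limma fit 4 Polycomb list genes rose, Ezh2, Bmi1, Jarid2 and Kdm6a, of which Kdm6a encodes a demethylase that removes the mark, and 1, Cbx6, fell, where 11.4% of all genes rose and 10.4% fell. Of 6 Trithorax genes, 1 was 2-fold lower, Ash2l, a subunit of the activating methyltransferase complexes, at 326 and 382 against 53.9 and 175, at least 3.53-fold lower without TNF, and none was 2-fold higher. In the limma fit Ash2l fell and Smarcb1, a subunit of the SWI/SNF remodelling complex, rose, at 1174 and 1032 against 1968 and 1912 (adjusted p = 0.00354).

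Retinoic acid switches on Hox genes in the embryo in the order of their position. Of 10 genes of this pathway measured without TNF, 1 was at least 2-fold higher and 3 were lower in the knockout, against 4.55% and 4.7% of all genes. In the limma fit 3 rose, Rara, Crabp1 and Crabp2, and 3 fell, where 11.4% of all genes rose and 10.4% fell. Crabp2, which carries retinoic acid to its nuclear receptors, had 20.3 and 5.4 in wild-type and 1646 and 1215 in knockout cells, at least 17.8-fold higher without TNF. The retinoic acid-forming enzyme genes Aldh1a1 (911 and 582 against 176 and 119, 5.19-fold) and Aldh1a3 (237 and 188 against 6.8 and 6.4, at least 2.56-fold) were lower. Nr2f1, an orphan nuclear receptor gene, was at least 2.18-fold lower, at 202 and 148 against 90.7 and 75.4.

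Other genes of limb and axial position also separated the genotypes. Of 12 measured without TNF, 5 were at least 2-fold higher and 1 was lower in the knockout, against 4.55% and 4.7% of all genes. Pitx1, which specifies the hindlimb, had 175 and 161 in wild-type and 3150 and 2053 in knockout cells, 18.0-fold higher without TNF. Shox2, which shapes the upper limb segment, had 140 and 87.7 against 2475 and 1388, 17.7-fold higher. Meox1, a somite gene, was 3.91-fold higher, and En1, which marks ventral limb ectoderm and part of the trunk dermis, was at least 5.99-fold lower (554 and 355 against 16.9 and 9.8). In the limma fit 5 of the 12 rose and 1 fell, against 11.4% and 10.4% of all genes. The lists in these paragraphs are descriptions beside the Hox genes, and no relation between them was tested.

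Members that gave no level complete the set. In all, 11 of the 38 Hox probe sets were below the floor on all 4 arrays, with signals of 1.0 to 84.0. They stand for Hoxa13, Hoxb1, Hoxb13, Hoxd1, Hoxd12 and Hoxd13, and for the dimmer probe sets of Hoxa4 and Hoxb8. Hoxa13, Hoxb13 and Hoxd13, the genes with the highest numbers on the array, were thus not detectable above the floor in either genotype. All act at the tail end, and Hoxa13 and Hoxd13 also in hands and feet.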

How the data were processed

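The deposited values are probe set intensities (signals) on a linear scale. Per the submitters' processing notes they come from MAS5, of unstated version and settings. Their trimmed means, leaving out 2% at each end, were 500.3 on all 4 arrays, so the arrays had been scaled before deposit. Gene symbols came from GEO's annotation of the platform, and 3 probe sets with several Hox symbols were left out. Groups came from the sample titles. Each array was brought to the same trimmed mean, then floored and put on a log2 scale. Differences of 2 arrays have no test. The additive fit used limma 3.58.1 (lmFit, 2-sided eBayes with trend, Benjamini-Hochberg adjustment across 6174 genes, prior degrees of freedom 5.62) in R 4.3.3, and was tested on simulated data. Python 3.11.15 did the rest. Every Hox probe set above the floor on at least 1 array is named; from other lists, up to 4 members past 2-fold without TNF by size of change, and further genes in those paragraphs, named markers and the controls Xist and Eif2s3y were chosen after their values were seen. Members and lists were chosen with earlier results of these data known. Alternatives were other scalings, floors at the 20th and 60th percentile, log2(signal + 50) without a floor, other probe set rules, 3-fold, and no intensity trend.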

Additional observations from a re-analysis of the deposited data

How the results depend on the processing

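Of 174 alternative values of the Hox counts and medians, 151 kept their direction and stayed within 1.5 times the value reported, taken for medians on the ratio before log2. The 151 include every count reported as 0, which stayed 0 throughout. They also include the values without rescaling, which could hardly move because the deposited arrays were already scaled. The values outside the 151 follow. Under the 60th-percentile floor, Hox genes 2-fold higher and lower in the knockout were 0 and 4 without TNF and 0 and 1 with TNF, those 2-fold lower with TNF in wild-type cells were 2, and limma called 1 Hox gene higher by genotype. The median log2 ratios without and with TNF were then 0.28 and 0.13 for paralog numbers 9 to 13, and -1.02 without TNF for 5 to 8. With a floor at the 20th percentile 7 Hox genes were higher under TNF, and the medians were 0.50 and 1.82 for numbers 9 to 13 and -1.57 under TNF for 5 to 8. With log2(signal + 50) the medians for 9 to 13 were 2.10 and 1.79. The count lower with TNF in wild-type cells was 0 with quantile normalization, equal medians, log2(signal + 50) or a 3-fold limit. Limma called 10 Hox genes lower by genotype with quantile normalization and with equal medians. Leaving out probe sets named _r_at or _f_at, a choice made after seeing the data, gave a median under TNF of 0.071 for numbers 1 to 4, turned from -0.09, and of -1.57 for 5 to 8, from -0.60. No paired analysis was possible because each group has 1 array and the labels give no replicate numbers. No array could be left out, because the fit would keep no residual degrees of freedom. Signal over background limits the Hox genes near the floor.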

Other observations

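Hoxa11os, the antisense transcript at Hoxa11, is no member of the set and has 2 probe sets. The first gave signals of 12.5 and 6.5 in wild-type cells without and with TNF and of 96.8 and 95.0 in knockout cells. The second gave 93.4 and 51.6 against 115 and 47.9, so the probe sets do not separate the genotypes alike. A probe set annotated to both Hoxb7 and Hoxb8 had 473 and 200 in wild-type and 233 and 222 in knockout cells.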
